A study of Mus musculus with 16 samples.

Results

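The 4 libraries of the sorted fractions Mc and Sch were set against the 8 libraries of the fractions Pc, Epi, DC and Fb, to find genes that both crest fractions share and the rest of the skin has at lower levels. A gene was kept when its lowest value in the Mc and Sch libraries was above its highest value in the other 8. This rule kept 420 of the 23235 rows of the expression table, which is 1.81%, and the mirrored rule kept 315 rows, or 1.36%, whose highest crest value was below the lowest of the other 8. The question was which genes are common to the melanocyte and glial branches of the neural crest in embryonic skin.

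RNA was sequenced from 16 libraries of skin from mouse embryos at embryonic day 14.5, sorted by FACS into 8 fractions with 2 libraries each. The fractions are labelled Mc, Sch, Pc, Epi, DC, Fb, DCSch and Neg, and the labels do not write these names in full. From general knowledge of the study they were read as melanocyte, Schwann cell, hair placode, epidermis, dermal condensate, fibroblast, dermal condensate mixed with Schwann cells, and the cells negative for the sorting markers. All libraries share age and tissue, and no treatment, strain, genotype or sex is named for any of them. The sources used here do not give the sorting markers, so a gene that served in the sort cannot be set apart from the rest. DCSch and Neg were described but not tested. The labels do not say whether the 2 libraries of a fraction came from separate litters or embryos, so p-values measure the spread between these samples, which may be technical. In sorted bulk samples, fewer cells of a type and less RNA per cell cannot be told apart.

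Neural crest cells leave the dorsal neural tube in the embryo and move through the body, and in the trunk skin they give rise both to melanocytes, the pigment cells of hair and epidermis, and to Schwann cells, the glia of peripheral nerves. Schwann cell precursors on growing nerves can themselves produce melanocytes. Both branches depend on the HMG-box factor Sox10, and crest cells also use Pax3, Foxd3 and the receptors Erbb3 and Ednrb.

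Values are FPKM, the fragments of a gene scaled by its transcript length and by the library's total, so levels of different genes are compared per length. Differences are on the log2(FPKM + 1) scale, on which weakly expressed genes change by less than their ratio. The crest difference is the mean of Mc and Sch minus the mean of Pc, Epi, DC and Fb, and its standard error (SE) holds only the spread between the 2 libraries of a fraction, not the spread between fractions. A gene carries a shared call when Mc and Sch each differ from each of the 4 other fractions in the same direction by at least 1, with the largest of the 8 limma p-values adjusted over 14171 rows by the Benjamini-Hochberg method and under 0.05. These tests use the same libraries as the rule and are no separate evidence for it.

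The markers fitted the labels. Sox10, the crest and glial factor at chr15:79154913-79164490 (mm10), was at 131 and 123 FPKM in Mc and at 188 and 92.2 in Sch. In the other 8 libraries Sox10 had a lowest level of 0.442, a median of 2.26 and a highest of 4.50 FPKM. Pax3, a paired-box factor of crest and melanoblasts, was at 59.3 and 68.7 FPKM in Mc, at 26.2 and 29.2 in Sch and at no more than 2.2 elsewhere. Both therefore stood far above the remaining fractions. Erbb3, the neuregulin receptor of crest and glia, was at 37.8 and 39.3 FPKM in Mc and at 91.1 and 69.7 in Sch, with a lowest level of 0.521, a median of 5.99 and a highest of 16.4 in the other 8. Erbb3 was thus also present in the surface fractions, with 16.4 and 15.1 FPKM in Epi and 12.5 and 8.88 in Pc.

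The fractions also held summed levels of other cell types' marker lists. The 18 keratinocyte genes summed to 556 to 908 FPKM in Mc and 65.1 to 376 in Sch, against 4346 to 7186 in Pc and Epi and 59.8 to 132 in DC and Fb. The 14 fibroblast genes summed to 416 to 621 FPKM in Mc and 1418 to 1567 in Sch, against 9262 to 10212 in Fb. They summed to 2547 to 2971 FPKM in DC, 539 to 645 in Pc and 467 to 489 in Epi, so the Mc range overlapped those of Pc and Epi. The 20 melanocyte genes summed to 8208 to 10202 FPKM in Mc, 282.5 to 421 in Sch and 336 to 468 in Epi. The 24 Schwann cell precursor genes summed to 3601 to 3897 FPKM in Sch, 555 to 558 in Mc and 656 to 689 in DC. The Schwann cell precursor genes thus summed to less in DC than in Sch, but to more than in Mc. The melanocyte genes summed to less in Epi than in Mc, but to a range that overlaps that of Sch. Markers of surface and dermal cells were present in the crest fractions. The part of these levels in the results below was not tested. No keratinocyte, fibroblast or dermal condensate list had a member among the 420 genes, which are 1.81% of all rows. The rule itself works against markers of the fractions compared, so this absence says nothing about such cells in Mc and Sch. The endothelial, mural, macrophage, mast cell, erythroid, muscle and cell cycle lists had no member either. The crest mean of the 24 cell cycle genes was called higher for 5 and lower for none, beside 6.48% and 5.95% of all rows tested. It was called higher for 10 with libraries rescaled to the same FPKM total.

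Of the 420 kept genes, 355 had a lowest crest value of at least 1 FPKM, 245 of at least 5 FPKM and 65 of under 1 FPKM. The filter on low values left 387 of them in the fit and 33 outside. A shared call was made for 82 genes, all among the 420, which is 0.579% of the rows tested, and 53 of these genes kept it with a pseudocount of 0.1 in place of 1. All 82 also kept it with the replicate number as a block in the fit. The fits without 1 library, here and below, did not hold this block. Of the 82, 42 kept the call in each of 12 fits that left out 1 of the compared libraries. The crest mean was called higher for 289 of the 387, against 6.48% of all rows tested. The rule fixes the direction of this difference, so the contrast is a description. As a description of the same rule elsewhere, Pc and Epi together were above the other 4 fractions in 1494 rows (6.43%) and DC and Fb together in 997 rows (4.29%). When each library was rescaled to the same FPKM total, the split of 420 genes higher and 315 lower became 556 and 229, and the median crest difference of all rows tested moved from -0.01 to 0.11. Without DC among the fractions compared, 702 genes were higher without overlap, and without Fb 699. The libraries' FPKM totals ran from 439201 in Sch 1 to 606437 in Epi 1.

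**Figure D1:**
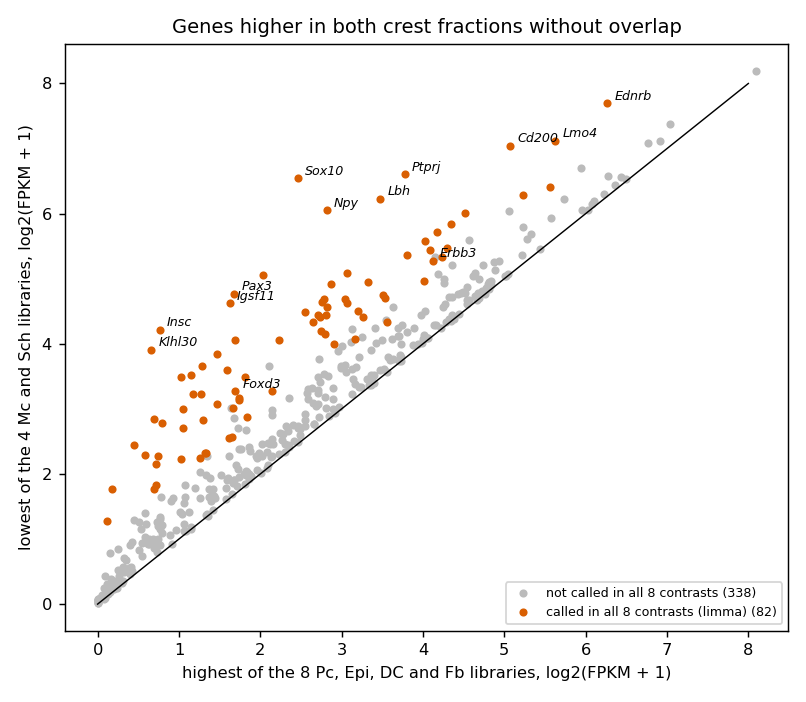
For each of the 420 kept genes, the lowest of the 4 Mc and Sch libraries (vertical axis) is plotted against the highest of the 8 Pc, Epi, DC and Fb libraries (horizontal axis), both as log2(FPKM + 1), with the line of equal values. The 82 genes with a shared call (orange) lie farther above the line than most of the 338 without one (grey), and Sox10 has the widest gap.

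The margin by which genes entered the list varied widely. Sox10 had the widest gap, with a lowest crest value of 92.2 FPKM (Sch 2) and a highest other value of 4.50 (DC 2). At the other end, among genes with at least 5 FPKM in all crest libraries, Fadd, the death receptor adaptor, entered with 9.54 FPKM in Sch 2 against 9.54 in Pc 1, equal at the digits shown. Ctnnbip1, an inhibitor of beta-catenin, entered with 12.3 FPKM on both sides, and Hdac4, a histone deacetylase, with 19.3 on both sides. Gemin8, of the complex that assembles splicing particles, stayed out with 8.53 FPKM in Sch 1 against 8.55 in DC 2, and Itgb1bp1 and Mtmr12 missed by as little. Genes near the boundary differ by less than the spread between libraries, and only 82 genes carried the shared call.

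Crest transcription factors were the group that holds the widest gap. Of the 20 listed factors in the table, 5 were kept (Sox10, Pax3, Foxd3, Sox5 and Ets1), 4 of them with a shared call, and the crest mean of 19 tested factors was called higher for 9 and lower for 5, where 6.48% and 5.95% of all rows tested were called. Their median crest difference was 0.69, against -0.01 over all rows tested, and the rule kept 1.81% of all rows. Sox10 had a crest difference of 5.54 (SE 0.24), a shared adjusted p of 0.000146 by limma, and kept its shared call in each of 12 fits that left out 1 of the compared libraries. Its levels in Mc and Sch did not pass the test (difference -0.05, SE 0.38). Pax3 had a crest difference of 4.57 (SE 0.19) with the same shared p of 0.000146, and was higher in Mc than in Sch by 1.18 (SE 0.30, adjusted p = 0.0195, limma).

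Foxd3, a forkhead repressor that holds crest cells back from the pigment fate, was at 22.1 and 8.66 FPKM in Mc, 114 and 78.9 in Sch, and no more than 2.23 in the other 8 libraries. Foxd3 was thus detected in both crest fractions and was higher in Sch, with a Mc minus Sch difference of -2.68 (SE 0.36, adjusted p = 0.000241, limma). Its shared call was lost without DC 2, at an adjusted p of 0.0675, and with a pseudocount of 0.1, at 0.0622 (limma). Sox5, an HMG-box factor that acts together with the Sox9 and Sox10 group, was at 8.65 and 12.3 FPKM in Mc and 57.7 and 77.4 in Sch, against a highest other value of 3.42 in DC 2. The Sox5 call was lost without Mc 2 or DC 1, with an adjusted p of up to 0.142, and with a pseudocount of 0.1, at 0.0879 (limma). Ets1, an ETS-domain factor of migrating crest, had 137 and 175 FPKM in Mc and 64.6 and 80.9 in Sch, but Fb already held 23.0 and 32.3, and it missed the shared call (adjusted p = 0.105, limma).

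Further regulators, outside that list, were kept as well. Lbh, a small transcriptional cofactor known from limb bud and heart, was at 102 and 116 FPKM in Mc and 74.1 and 80.4 in Sch. The other 8 libraries had Lbh at 3.40 to 10.1 FPKM with a median of 7.97. Its crest difference of 3.59 (SE 0.12) had a shared adjusted p of 6.99e-05 by limma, the lowest of all rows together with Insc. Lmo4, a LIM-only adaptor protein, was at 205 and 215 FPKM in Mc and 138 and 217 in Sch, but also at 19.2 to 48.4 FPKM in the other fractions, and its call was lost without Sch 2 (adjusted p = 0.0502, limma). Arnt2, a bHLH-PAS partner protein, was nearly even between Mc (24.9 and 27.3 FPKM) and Sch (26.9 and 24.1), with a highest other value of 5.77. Foxo1, a forkhead factor under insulin control, was at 25 and 33.6 FPKM in Mc and 66.9 and 70.3 in Sch, against a highest other value of 10.6.

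**Figure D2:**
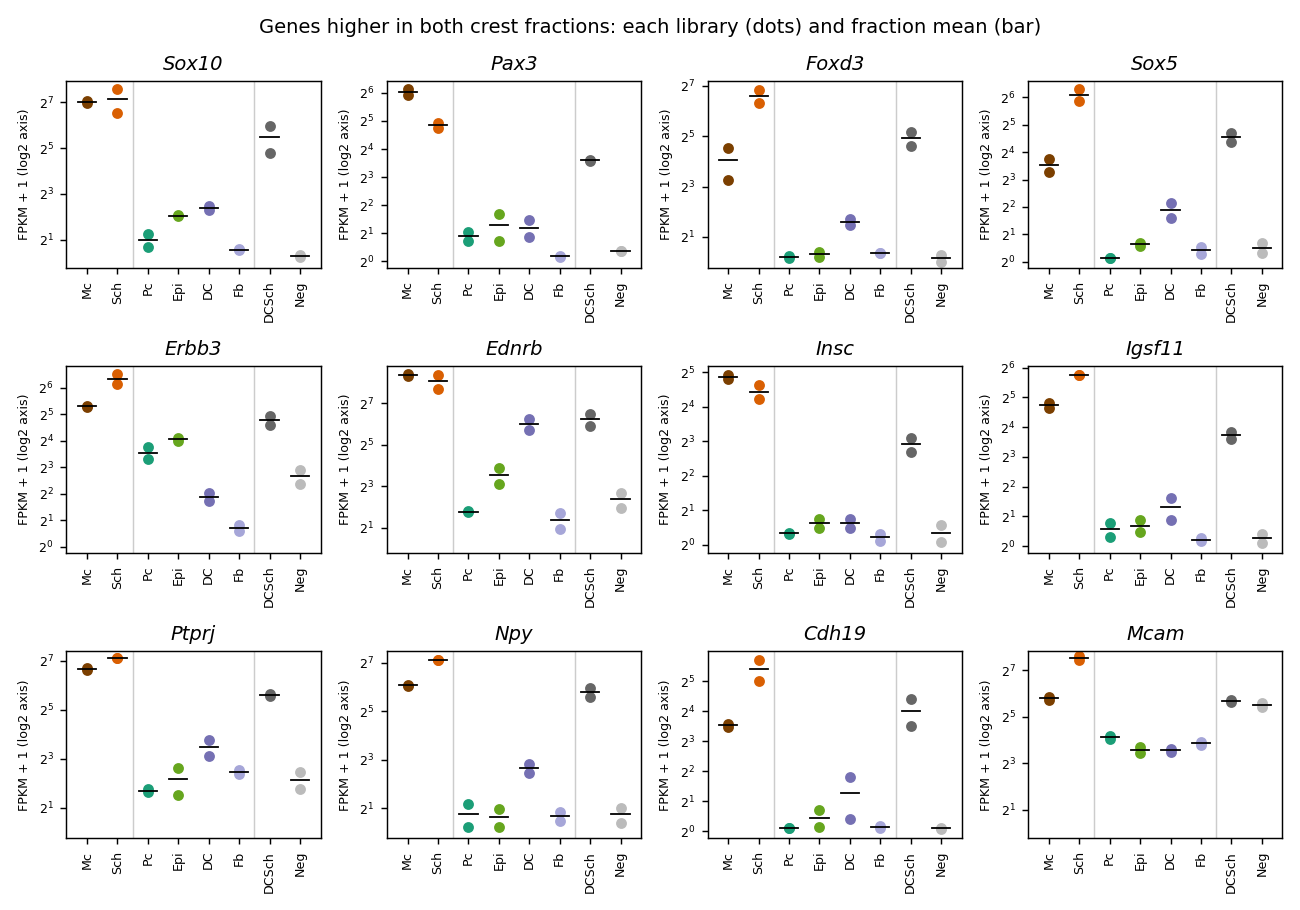
Each panel plots 1 gene as FPKM + 1 on a log2 axis for the 16 libraries (dots) with the mean of each fraction (bar); the grey lines set the crest fractions, the 4 fractions compared with them, and DCSch and Neg apart. In all 12 panels the Mc and Sch dots lie above the Pc, Epi, DC and Fb dots, with DCSch in between for most genes, and Ednrb in DC has the highest dots among the 4 fractions compared.

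Receptors and their signalling partners followed. Of 17 listed ErbB, endothelin, Kit and Ret receptors and ligands in the table, 2 were kept, Erbb3 and Ednrb, both with a shared call. The crest mean of the 15 tested was called higher for 8 and lower for 1, against 6.48% and 5.95% of all rows tested, and the rule kept 1.81% of all rows. Ednrb, the endothelin B receptor needed by melanoblasts and enteric crest, was at 323 and 343 FPKM in Mc and 206 and 332 in Sch, which makes it 1 of the most abundant shared genes per length. DC held 51.2 and 75.8 FPKM of Ednrb, while Pc and Fb held no more than 2.45. Its crest difference was 5.07 (SE 0.23), and its shared adjusted p of 0.0229 rose to as much as 0.220 in fits without Mc 1, Mc 2, Sch 2 or DC 1, and was 0.0670 with a pseudocount of 0.1 (limma). Erbb3 had a crest difference of 3.28 (SE 0.15), was higher in Sch than in Mc (Mc minus Sch -1.03, SE 0.25, adjusted p = 0.0145, limma), and had a shared adjusted p of 0.0413. Leaving out any 1 of the 12 compared libraries lost the Erbb3 call, with adjusted p from 0.0565 to 0.281 by limma, and a pseudocount of 0.1 gave 0.0912, while with the replicate number as a block it was 0.00467.

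Genes of downstream proteins followed the crest fractions too. Shc4, an adaptor of the Shc family that binds receptor tyrosine kinases, was at 27.9 and 39.5 FPKM in Mc and 12.3 and 11.6 in Sch, with no other library above 1.44. The Shc4 locus overlaps Eid1, and reads of the pair may not be separated because the strand used in counting is not given in the sources used here. Ptprj, a receptor tyrosine phosphatase, was at 96.3 and 102 FPKM in Mc, 135 and 136 in Sch and 1.91 to 12.7 in the other 8 libraries. Rasa3, a GTPase-activating protein for Ras and Rap, reached 64.2 and 63.3 FPKM in Mc and 89.0 and 81.2 in Sch but also 22.0 in Pc 1. Pde8a, a cAMP phosphodiesterase, was even between the crest fractions (32.4 and 42.0 FPKM in Mc, 39.6 and 41.4 in Sch) and at no more than 3.09 elsewhere. Deptor, an inhibitor of mTOR, was at 37.9 and 29.8 FPKM in Mc and 94.3 and 82.3 in Sch, against a highest other value of 9.05. These 5 genes carried the shared call in all 12 fits without 1 library.

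Adhesion and guidance genes gave 5 kept members of 33 in the table (Cdh2, Cdh19, Itga4, Mcam and Plxnc1), 2 of them with a shared call, and 1 member in the opposite direction, Epha4. The crest mean of the 32 tested was called higher for 13 (6.48% of all rows tested) and lower for 6 (5.95% of all). The rule kept 1.81% of all rows and the mirrored rule 1.36%. Cdh19, a cadherin of crest-derived glia, was at 10.9 and 10.2 FPKM in Mc and 31.6 and 51.6 in Sch, with a highest other value of 2.51 in DC 2. The Cdh19 call was lost without Mc 1, Mc 2, Epi 1 or DC 1 (adjusted p up to 0.149, limma) and with a pseudocount of 0.1 (0.102). Mcam, the melanoma cell adhesion molecule, was at 56.6 and 51.7 FPKM in Mc and 193 and 169.8 in Sch, against 9.86 to 17 in the other 8 libraries, and kept its call in all 12 fits. Mcam was higher in Sch than in Mc (Mc minus Sch -1.73, SE 0.17, adjusted p = 1.69e-05, limma), and Neg held nearly as much as Mc, with 46.9 and 41.1 FPKM.

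Cdh2, N-cadherin, and Itga4, a fibronectin-binding integrin of migrating crest, were kept without a shared call. Cdh2 was at 18.0 and 20.2 FPKM in Mc and 64.2 and 69.6 in Sch, and DC followed with 10.1 and 11.9. Itga4 differed between the numbered libraries in both crest fractions, with 39.3 and 71.6 FPKM in Mc and 48.3 and 94.0 in Sch, and Fb 2 reached 16.7; its locus overlaps Cerkl. Igsf11, a homophilic adhesion protein of the immunoglobulin superfamily, was at 27.2 and 23.7 FPKM in Mc, 52.6 and 53.3 in Sch and at no more than 2.08 elsewhere. Cd200, the gene of an immunoglobulin-type ligand that restrains myeloid cells, was at 131 and 237 FPKM in Mc and 275 and 363 in Sch, against 1.49 to 32.6 in the other 8 libraries. Its call was lost without Mc 2 or DC 1 (adjusted p up to 0.155, limma).

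Glial and myelin genes gave 6 kept members of 31 in the table, 2 of them with a shared call, among them Scrg1, while the crest mean was called higher for 22 and lower for 2 of 29 tested, beside 6.48% and 5.95% of all rows tested. The rule kept 1.81% of all rows. Gjc3, a glial connexin that is also in the list of Sox10 targets, was at 15.6 and 18.2 FPKM in Mc and 52.6 and 71.9 in Sch, against 3.70 at most elsewhere. Leaving out Mc 2 ended the Gjc3 call (adjusted p = 0.0586, limma). Scrg1, a small secreted protein, was at 29.7 and 11 FPKM in Mc and 10.2 and 11.1 in Sch, and was listed at 0 in both Pc libraries, DC 1 and Fb 1. The Scrg1 call was lost without Sch 1, Sch 2 or Epi 1, with an adjusted p of up to 0.0705, and with a pseudocount of 0.1 its adjusted p was 0.227 by limma. Sh3tc2, a Schwann cell protein that is mutated in an inherited neuropathy, was low in Mc (4.47 and 3.91 FPKM) and higher in Sch (15.8 and 12.7), with no other library above 0.497.

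The other 4 kept glial genes were higher in Mc or nearly even. Gpm6a, a neuronal and glial membrane glycoprotein, had 15.7 and 19.9 FPKM in Mc but 0.882 and 2.28 in Sch. S100a1, a calcium-binding protein whose locus overlaps S100a13, had 41.8 and 35.2 FPKM in Mc and 8.08 and 12.4 in Sch. Art3, an ADP-ribosyltransferase family member whose locus overlaps Cxcl10, had 26.4 and 17.1 FPKM in Mc and 5.26 and 4.75 in Sch. Mpzl1, an immunoglobulin-type membrane protein found in many tissues, had 133 and 114 FPKM in Mc, 97.9 and 94.6 in Sch, and as much as 76.7 in Fb 1. None of these 4 carried a shared call.

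Npy, neuropeptide Y, was at 67.0 and 65.4 FPKM in Mc and 138 and 137 in Sch, while the other 8 libraries had a lowest level of 0.165, a median of 0.880 and a highest of 6.05, in DC 1. Its crest difference of 5.45 (SE 0.22) was close to that of Sox10. Sema3b, a secreted semaphorin, was at 11.5 and 10.5 FPKM in Mc and 24.9 and 13.9 in Sch and at no more than 1.21 elsewhere. Both kept the shared call in all 12 fits without 1 library, and both lost it with a pseudocount of 0.1, at adjusted p of 0.0643 for Npy and 0.0605 for Sema3b (limma).

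Kcna2, a voltage-gated potassium channel, was at 7.13 and 5.88 FPKM in Mc and 8.66 and 11.9 in Sch, with a highest other value of 0.730. The kainate receptor subunits Grik1 and Grik2 were even lower or similar, with Grik1 at 2.56 to 3.15 FPKM over the 4 crest libraries and Grik2 at 6.2 to 11.1, against highest other values of 0.640 and 0.620. Kcnk5, a background potassium channel, was at 6.12 and 6.70 FPKM in Mc and 11.7 and 13.3 in Sch, against 0.668 to 1.46. Gabrb2, a GABA-A receptor subunit, was at 6.46 and 11.1 FPKM in Mc and 5.52 and 9.11 in Sch, against 1.08 at most, and its call was lost without Sch 2 or DC 1 (adjusted p up to 0.0753, limma) and with a pseudocount of 0.1 (0.0681). Of 13 neuron genes in the table, 2 were kept, Tubb3 and Elavl4, where the rule kept 1.81% of all rows. The crest mean of the 8 tested was called higher for 3 and lower for 1 (6.48% and 5.95% of all rows tested). Tubb3, a neuronal tubulin, was at 37.5 and 52.4 FPKM in Mc and 20.3 and 17.4 in Sch, and Elavl4, a neuronal RNA-binding protein, at 1.68 and 3.15 in Mc and 5.89 and 10.5 in Sch. The summed level of the 13 neuron genes was 41.5 to 56.7 FPKM in Mc and 42.3 to 49.4 in Sch, with Tubb3 making up a large share, and 16.8 to 26.9 in DC and Fb. The part of neuronal RNA in these values was not tested.

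Some of the widest gaps belonged to genes with no listed role in crest. Insc, the adaptor that links spindle orientation to the Par polarity complex, was at 26.9 and 29.5 FPKM in Mc and 23.7 and 17.6 in Sch, with no other library above 0.695. Its crest difference was 4.19 (SE 0.15) with a shared adjusted p of 6.99e-05 by limma. Klhl30, a Kelch-family protein, was at 30.9 and 17.9 FPKM in Mc and 20.6 and 14.0 in Sch, against a highest other value of 0.579. Their Mc minus Sch differences of 0.44 (SE 0.25) for Insc and 0.45 (SE 0.28) for Klhl30 did not pass the test. Megf10, an engulfment receptor of glia and muscle precursors, was at 15.7 and 18.0 FPKM in Mc and 38.7 and 48.6 in Sch, against 2.23 at most. St3gal5, the sialyltransferase that makes ganglioside GM3, was at 50.5 and 71.5 FPKM in Mc and 29.1 and 34.7 in Sch, against 3.02 to 6.28, and its locus overlaps 4933431G14Rik. Cyp2j6, a cytochrome P450, was at 32.9 and 41.7 FPKM in Mc and 48.8 and 70.6 in Sch, and its call was lost without Mc 2 (adjusted p = 0.0606, limma). Fam178b and Atp6v0e2, a subunit of the proton-pumping V-ATPase, completed the widest gaps, with lowest crest values of 13.3 and 11.2 FPKM against highest other values of 1.76 and 2.01. The Fam178b call was lost with a pseudocount of 0.1 (adjusted p = 0.0625, limma).

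A noncoding neighbour of Sox10 was among them. Gm10863, annotated as a long noncoding RNA at chr15:79166066-79216401, was at 9.99 and 8.42 FPKM in Mc and 14.3 and 11.3 in Sch, at 1.25 at most in the other 8 libraries, and listed at 0 in both Fb and both Neg libraries. Its crest difference was 3.09 (SE 0.18), with a shared adjusted p of 0.00196 by limma, kept in all 12 fits without 1 library and lost with a pseudocount of 0.1 (adjusted p = 0.186, limma). The Sox10 and Gm10863 loci lie 1575 bases apart and run away from each other, Sox10 on the minus and Gm10863 on the plus strand. The 245 kept genes with at least 5 FPKM held 7 pairs of loci within 10000 bases of each other without overlap. Of these pairs, 4 were known to be head to head, among them Tle1 and C630043F03Rik at 324 bases. The share of such pairs over all genes was not computed. Tle1, a Groucho corepressor, was at 15.1 and 17.7 FPKM in Mc and 17.4 and 14.9 in Sch, against 3.48 to 6.50 elsewhere, and carried the shared call in 5 of the 12 fits. It was lost without Mc 1, Mc 2, Sch 1, Sch 2, Epi 1, Epi 2 or Fb 2 (adjusted p up to 0.226, limma).

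Because both crest fractions hold high Sox10, the 250 bases upstream of the annotated starts of shared genes were searched for ACAAAG, the core that Sox HMG-box proteins bind, on both strands. RefSeq windows (GRCm38.p6, the assembly of mm10) were at hand for 175 of the 245 genes with at least 5 FPKM in the crest libraries and for 52 of the 82 with a shared call, but not for Sox10, Pax3 or Erbb3. The core was in 8 of the 52 (15.4%) and 20 of the 175 (11.4%), against 4447 of 27025 windows of all genes (16.5%), a share no higher than in all genes. The windows of all genes were not limited to rows of the expression table or to genes expressed in these fractions. Of the genes called lower in both crest fractions, 2 of 21 (9.52%) held the core. CANGTG, the E-box form that Mitf can bind, was in 40.4% of the 52 and 39.4% of all, and in 4 of 21 (19.0%) of the genes called lower. GCCNNNGGC, the palindrome of AP-2 factors, was in 23.1% of the 52 and 28.0% of the 175 against 13.6% of all, and in 5 of 21 (23.8%) of the genes called lower in both crest fractions, so the share was as high in the opposite set. These shares were not tested. The 4 windows below belong to genes described above that hold the Sox core, written 5′ to 3′ on the gene's strand with the core or its reverse complement CTTTGT in capitals.
Gm10863, chr15:79165816-79166065, plus strand, between the Sox10 and Gm10863 loci: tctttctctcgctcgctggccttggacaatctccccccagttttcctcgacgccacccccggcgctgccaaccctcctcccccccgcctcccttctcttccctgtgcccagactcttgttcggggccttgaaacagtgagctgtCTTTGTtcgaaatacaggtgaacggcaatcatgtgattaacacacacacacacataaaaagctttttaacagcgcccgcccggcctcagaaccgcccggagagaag
Lbh, chr17:72918055-72918304, plus strand: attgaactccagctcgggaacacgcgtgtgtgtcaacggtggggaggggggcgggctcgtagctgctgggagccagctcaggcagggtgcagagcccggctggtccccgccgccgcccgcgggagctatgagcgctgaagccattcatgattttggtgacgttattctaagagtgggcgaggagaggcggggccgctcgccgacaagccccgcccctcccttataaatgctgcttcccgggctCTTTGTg
Arnt2, chr7:84410039-84410288, minus strand: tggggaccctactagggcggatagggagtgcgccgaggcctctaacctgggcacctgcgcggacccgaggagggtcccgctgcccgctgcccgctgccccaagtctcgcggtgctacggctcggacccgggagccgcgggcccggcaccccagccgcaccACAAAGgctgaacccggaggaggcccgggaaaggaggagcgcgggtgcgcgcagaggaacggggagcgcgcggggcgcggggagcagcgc
Atp6v0e2, chr6:48537319-48537568, plus strand: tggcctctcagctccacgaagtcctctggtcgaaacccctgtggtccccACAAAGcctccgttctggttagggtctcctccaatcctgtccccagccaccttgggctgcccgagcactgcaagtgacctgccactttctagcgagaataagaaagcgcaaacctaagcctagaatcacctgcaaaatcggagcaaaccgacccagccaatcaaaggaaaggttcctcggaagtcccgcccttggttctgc
The match begins 106 bases before the start in Gm10863, 7 in Lbh, 90 in Arnt2 and 201 in Atp6v0e2. A match is a description of these letters, and its part in the levels was not tested.

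Most known crest genes were not shared by this rule. Of 131 genes in the 7 crest lists that are in the table, 124 were tested and 20 were kept, where the rule kept 1.81% of all rows. These lists include genes known from melanocytes and genes known from Schwann cell precursors. Of the 104 tested and not kept, both Mc libraries were above all 8 others for 25, both Sch libraries for 36, and neither for 43. Shares of all rows with Mc alone or Sch alone above the 8 others were not computed, so these counts are a description. The highest of the other 8 libraries was a DC library for 39 of the 104, Epi for 25, Fb for 24 and Pc for 16. All 20 melanocyte genes had a higher crest mean by the test (6.48% of all rows tested), and 2 were kept, Ednrb and Mlph (1.81% of all rows). Their summed level was 8208 to 10202 FPKM in Mc but 282.5 to 421 in Sch, so Mc made up most of this mean. The examples that follow were low in Sch. Kit, the receptor of melanoblasts, was at 390.5 and 522 FPKM in Mc but at 8.26 and 7.49 in Sch, and Epi 2 had 14.6. Mitf, the master factor of pigment cells, was at 115 and 167 FPKM in Mc and 1.53 and 1.90 in Sch, and Epi 2 had 6.52. Dct, a melanin enzyme, was at 3522 and 2407 FPKM in Mc, at 4.01 and 4.98 in Sch, and at 92.8 and 132 in Epi. Mitf and Dct were thus higher in both Epi libraries than in both Sch libraries.

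The glial genes named next were lower in Mc than in Sch and also present in DC. Of 24 Schwann cell precursor genes, 18 had a higher crest mean by the test and 1 a lower one (6.48% and 5.95% of all rows tested). Of these 24, 4 were kept (1.81% of all rows), among them Cdh19, Ednrb and Foxd3. Fabp7, a fatty acid binding protein of glial precursors, was at 1091 and 1443 FPKM in Sch, 42.2 and 56.0 in Mc, and 24.0 and 70.1 in DC. Ngfr, the p75 neurotrophin receptor, was at 218 and 149 FPKM in Sch, 9.03 and 5.61 in Mc, and 444 and 208 in DC, which had the highest levels. Among 21 listed Sox10 targets in the table, 7 were kept, Sox10 itself among them, where the rule kept 1.81% of all rows. The crest mean of this list was called higher for 17 of 19 tested (6.48% of all rows tested) and lower for none, with a median difference of 2.96. Several transcription factors known from early crest had their highest levels elsewhere in skin. Tfap2b was at 40.0 and 54.4 FPKM in Mc and 80.6 and 101.2 in Sch but at 106 and 141 in Pc, Sox9 at 34.3 and 33.9 in DC and at 0.948 to 7.52 in the crest libraries, and Snai2 at 46.0 and 73.1 in Pc and at 6.57 to 13.2 in the crest libraries.

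The shared genes still differed between Mc and Sch. Of the 387 tested, limma called 46 higher in Mc and 61 higher in Sch, against 4.53% and 7.31% of all rows tested, and 280 were not called. Of the 82 with a shared call, 6 were higher in Mc (Pax3, Shc4, Gpr137b, Tubb3, Mlph and Shisa2) and 17 in Sch. Among the 245 genes with at least 5 FPKM in every crest library, the widest differences to the Mc side were those of Phlda1, a pleckstrin-domain protein, with 594 and 580.4 FPKM in Mc against 84.5 and 65.8 in Sch, and of Plxnc1, a semaphorin receptor, with 79.5 and 75.3 against 10.3 and 13.7. Mlph, which ties melanosomes to myosin, had 69.9 and 46.5 FPKM in Mc and 10.5 and 7.95 in Sch, against 2.32 at most in the other fractions. Its shared call was lost without Sch 1 or Epi 1 (adjusted p up to 0.0868, limma) and with a pseudocount of 0.1 (0.10). Sat1, which acetylates polyamines, and Cdk2, whose locus overlaps the melanosome gene Pmel, completed the 5 at this end. Below that level, Gpm6a had a Mc minus Sch difference of 2.91, beside 2.96 for Phlda1, and Fabp3 and E330034G19Rik had wider ones of 3.53 and 3.43. Towards Sch, at the same minimum of 5 FPKM, Ndst3, a heparan sulfate sulfotransferase, had 73.9 and 95.3 FPKM in Sch against 5.77 and 5.11 in Mc, and Stard13, a GTPase-activating protein, 89.9 and 82.9 against 7.93 and 9.22. Foxd3, Sox5 and I730030J21Rik followed.

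Galm, Nfya, Tacc1 and Frmd8 were among the kept genes with the closest levels in the 2 crest fractions. Tacc1, a centrosomal coiled-coil protein, was at 42.2 and 59.0 FPKM in Mc and 49.7 in each Sch library, against 5.48 to 16.0 in the other 8, and carried the shared call in all 12 fits. Galm, Nfya and Frmd8 were as even between Mc and Sch, but their lowest crest values of 11.5, 33.0 and 14.6 FPKM lay closer to the highest other values of 8.08, 23.8 and 7.02.

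**Figure D3:**
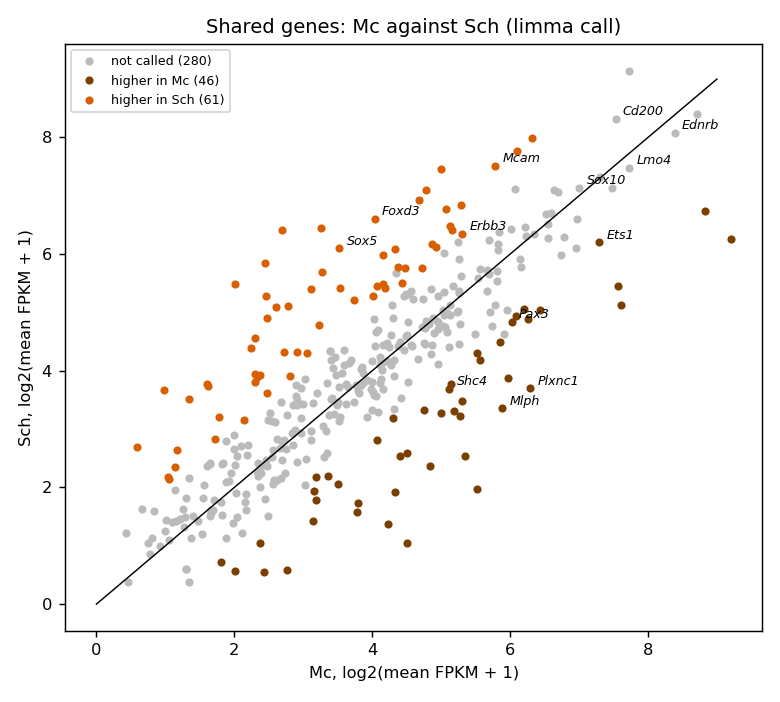
Each dot is 1 of the 387 shared genes tested, with the mean of the 2 Mc libraries (horizontal axis) and of the 2 Sch libraries (vertical axis) as log2(mean FPKM + 1) and the line of equal levels; 46 genes called higher in Mc are brown, 61 called higher in Sch are orange and 280 not called are grey. Sox10, Ednrb and Lmo4 lie near the line, Foxd3 and Sox5 above it, and Mlph and Plxnc1 below it.

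Among the 245 shared genes with at least 5 FPKM in every crest library, the lowest crest library was Mc for 120 and Sch for 125. The highest other library was DC for 96, Fb for 67, Epi for 47 and Pc for 35. The median level of these genes was 22.3 and 23.5 FPKM in the Mc libraries and 26.2 and 24.4 in Sch, and it lay between 5.42 and 6.62 in the 8 others. The rule fixes that order, so it is given as a description.

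DCSch, which took no part in the rule, held these genes at intermediate levels, with medians of 12.5 and 12.8 FPKM. Both DCSch libraries were above the highest of the 8 others for 113 of the 245 genes, between the DC and the Sch libraries for 171, and above the highest crest library for none. The rule places Sch above DC for all 245 genes, and the shares over all rows were not computed, so these counts are a description. The DCSch mean was a median of 48.5% of the Sch mean, with quartiles of 36.8% and 63.2%. For the 58 genes whose DC level was under 10% of Sch, the median was 33.7% (quartiles 30.4% and 37.2%). Genes not kept with the same DC and Sch pattern, 213 in number, had a median of 34.5%, so this share was not particular to the shared genes. Gm10863, Grik2, Igsf11, Kcna2 and Sema3b had the lowest shares, and Bpnt1, Nrf1, Ppp4r1 and Rnf216, which differ little between fractions, were among the highest.

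Neg held the shared genes unevenly, with medians of 10.2 and 9.38 FPKM. Both Neg libraries were above the highest of the 8 compared libraries for 65 of the 245 genes and below the lowest crest library for 184. The shares of all rows with these patterns were not computed. Megf10 had 12.2 and 13.8 FPKM in Neg and St3gal5 30.5 and 30.4. Crip2, a LIM-domain protein, had 107 and 36.1 FPKM, so its libraries differed by more than the crest libraries did. Sox10 and Pax3 were at most 0.258 and 0.290 FPKM in Neg. The 9 erythroid genes summed to 44468 to 55838 FPKM in Neg and to 334.6 at most in the 12 compared libraries. The 11 endothelial genes summed to 397 to 592 FPKM in Neg and to 74.2 at most in the 12, and the 7 mast cell genes to 1053 to 1233 in Neg. The part of these cells in the Neg levels of shared genes was not tested. Ednrb, Phlda1, Kctd12, Cadm1 and Gm10677, which shares its locus with Cadm1, had the lowest Neg levels against the other fractions.

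**Figure D4:**
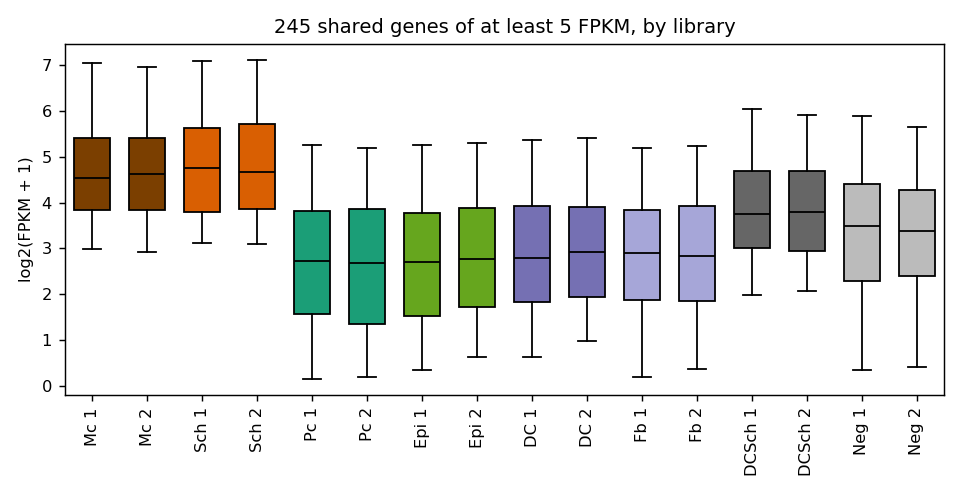
Boxes give the quartiles and the median, and whiskers the central 90% of the genes, of log2(FPKM + 1) for the 245 shared genes of at least 5 FPKM in each of the 16 libraries. The 2 libraries of a fraction resemble each other, the 4 crest boxes are the highest by the rule, and DCSch and Neg lie between them and the other 8.

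Genes lower in both crest fractions were fewer. Of the 315 kept by the mirrored rule, 294 were tested, 162 had at least 5 FPKM in all 8 other libraries, and 28 carried a shared call, which is 0.198% of the rows tested. The crest mean was called lower for 203 of the 294, against 5.95% of all rows tested, a direction that the mirrored rule fixes. The count of 28 moved with the libraries in the fit. It was 6 without Mc 2, 16 without Sch 1, 12 without Sch 2, 18 without Pc 1, 17 without Pc 2, 9 without Epi 1, 15 without Epi 2 and 18 without Fb 1. It rose to 58 with the replicate number as a block and fell to 16 when libraries were rescaled to the same total. Emp1, Bcl11b, Dock9, Fam101b and S100a10 kept the call in all 12 fits.

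Emp1, an epithelial membrane protein, was at 18.3 and 16.8 FPKM in Mc and 15.7 and 14.4 in Sch, while the other 8 libraries had a lowest level of 72.6, a median of 94.7 and a highest of 255. Its crest difference was -2.69 (SE 0.14) with a shared adjusted p of 0.000884 by limma. Bcl11b, a zinc finger factor of epidermis and dermis, was at 4.02 to 6.80 FPKM in the crest libraries and at 23.6 to 70.2 in the other 8, with a difference of -2.78 (SE 0.14). Both were thus low in melanocyte and Schwann fractions and present in epithelium and mesenchyme alike. Dock9, an exchange factor for Cdc42, was at 1.93 to 2.51 FPKM in the crest libraries and 9.37 to 14.5 elsewhere. S100a10, the partner of annexin A2, was at 61.4 and 62.9 FPKM in Mc and 104 and 132 in Sch against 258 to 365 elsewhere. Fam101b, also named Rflnb, was at 3.37 to 4.71 FPKM in the crest libraries and 14.8 to 50.6 elsewhere.

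Receptors and matrix proteins were in the same set. Fgfr2, a fibroblast growth factor receptor, was at 21.4 and 10.8 FPKM in Mc and 12.8 and 5.90 in Sch, with 208 and 256 in Pc and 58.3 and 57.0 in Fb. The Fgfr2 call was lost without Mc 2, Epi 1, Fb 1 or Fb 2 (adjusted p up to 0.214, limma). Epha4, an ephrin receptor, was at 1.26 to 2.15 FPKM in the crest libraries and 9.15 to 37.3 elsewhere, and its call was lost without any 1 of the Mc, Sch, Pc or Epi libraries (adjusted p up to 0.222, limma). Smoc2, a matricellular protein, was at 1.34 to 8.51 FPKM in the crest libraries and 24.0 to 60.9 elsewhere, and was lost without Mc 2, Epi 1, DC 1 or DC 2. Ccdc3, a secreted protein, was at 1.98 to 4.0 FPKM against 12.6 to 71.5, and was lost without Sch 2, Epi 1 or Epi 2. Rtn1, a reticulon of the endoplasmic reticulum, was at 1.13 to 1.69 FPKM against 6.74 to 41.5 and missed the shared call (adjusted p = 0.0718, limma).

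Hox genes, the factors that set position along the body axis, held several of the genes lower in the crest fractions. This group was chosen after its values were seen. The table held 39 Hox genes and 31 of them were tested, and the crest mean was called lower for 12 and higher for 1 (5.95% and 6.48% of all rows tested), with a median difference of -0.97 against -0.01 over all rows tested. With libraries rescaled to the same total these counts were 11 and 1. The mirrored rule, which kept 1.36% of all rows, kept 5 of the 39, namely Hoxb3, Hoxc4, Hoxc5, Hoxc6 and Hoxc8, and Hoxc4, Hoxc5 and Hoxc8 carried a shared call.

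Hoxc8, at chr15:102990539-102994254, was at 3.96 and 3.10 FPKM in Mc and 2.87 and 1.42 in Sch, while the other 8 libraries had a lowest level of 13.8, a median of 32.6 and a highest of 43.9. Its difference was -3.00 (SE 0.17), and its call was lost without Mc 2 or Epi 1 (adjusted p up to 0.0743, limma). Hoxc5 was at 1.22 to 2.95 FPKM in the crest libraries and 9.33 to 29.0 elsewhere, and Hoxc4 at 1.12 to 3.38 against 8.01 to 20.4. The Hoxc5 call was lost without Mc 2, Sch 2, Epi 1, Epi 2 or DC 2 (adjusted p up to 0.165, limma), and the Hoxc4 call held in 1 of the 12 fits, the one without Mc 1 (adjusted p up to 0.355 in the rest, limma), and was lost with a pseudocount of 0.1 (0.0605). Hoxc6 had 1.72 to 5.43 FPKM in the crest libraries and 6.55 to 42.7 elsewhere without a shared call. The 4 Hoxc genes lie next to each other on chromosome 15 and were low in both crest fractions, and DCSch held Hoxc8 at 19.1 and 22.0 FPKM. Hoxb3 was nearest to the boundary, with 3.41 FPKM in Sch 2 against 3.53 in DC 2.

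**Figure D5:**
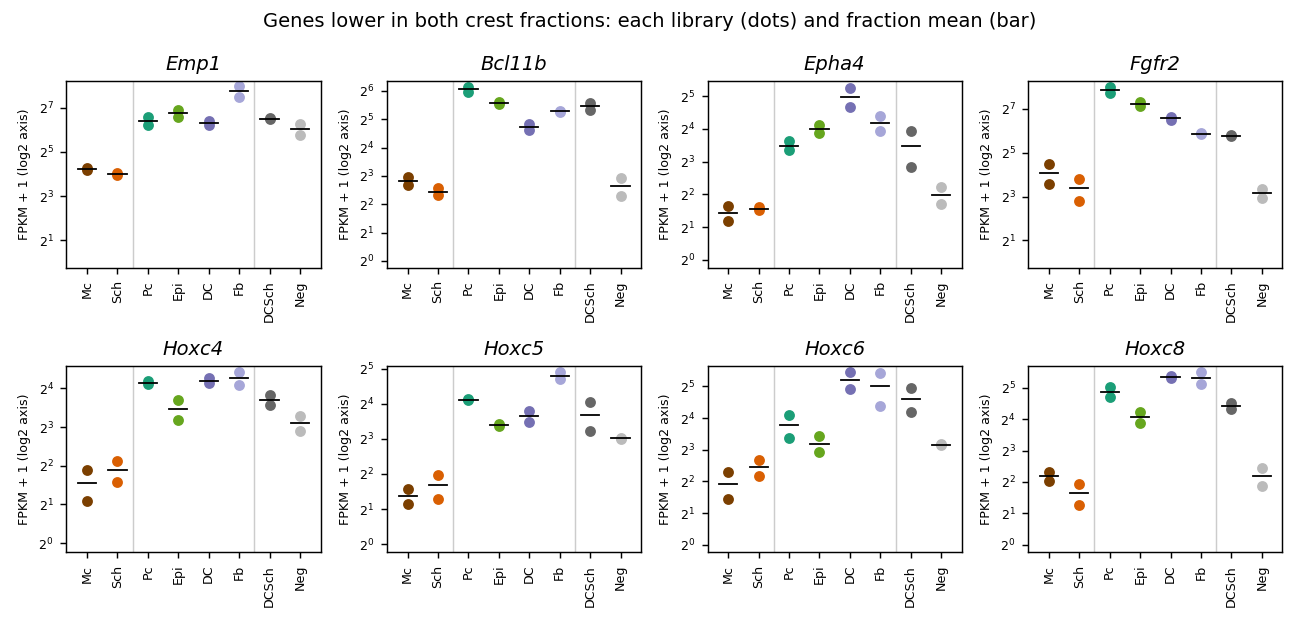
Each panel plots 1 gene that was lower in both crest fractions, as FPKM + 1 on a log2 axis, for the 16 libraries (dots) and the fraction means (bars). In all 8 panels the Mc and Sch dots lie below the Pc, Epi, DC and Fb dots, and for Bcl11b, Fgfr2 and Hoxc8 the Neg dots lie at crest levels.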

How the data were processed

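The authors deposited 1 table of FPKM values with 23235 rows and 16 libraries. TopHat2 2.0.3, Bowtie2, Cufflinks 2.1.1 and the build mm10 are named in the submitters' processing notes, without their roles. Per the labels' protocols, libraries were made from 100 ng of cDNA amplified from 6 ng of RNA (integrity number 8.8 or more). The sources used here state neither read depth nor any scaling between libraries, so depth is unknown and no interval that needs it is given.

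Values were tested as log2(FPKM + 1) with limma 3.58.1 (R 4.3.3), using rows with at least 1 FPKM in at least 2 libraries and 1 mean per fraction over all 16 libraries, with trended and robust spread, checked on simulated data. P-values were adjusted by Benjamini-Hochberg. A call needs an adjusted p under 0.05 and a log2 difference of at least 1. The 434 rows that share a symbol were tested but not named. The members, lists and rules were chosen with earlier results of these data known. Named genes are the 20 widest gaps above, the 10 widest below, kept members of the crest lists, the markers, the genes nearest the boundary, and the extremes for Mc against Sch, DCSch and Neg. Lmo4, Arnt2, Foxo1, Rasa3, Deptor, Cd200, Sh3tc2, Grik1, Kcnk5, Gabrb2, Tubb3, Elavl4, Tle1, S100a10, the other Hox genes, Fgfr2, Fabp3, E330034G19Rik and list members not kept were named after their values were seen. Replicate numbers moved together across fractions: the deviations of same-numbered libraries correlated at 0.192 to 0.656 over 15 of 15 pairs of the 6 fractions compared, so a fit with the replicate number as a block was an alternative. Some genes that meet these rules are not reported here.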

Additional observations from a re-analysis of the deposited data

Results flagged for a closer look

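The Neg libraries were in no comparison, with no control sample to set them against. Of the 245 shared genes with at least 5 FPKM in the crest libraries, 5 were higher in both Neg libraries than in all 4 crest libraries. They were thus also above all 8 others, and 3 of them are described here. The share of all rows with this pattern was not computed. Msn, the cytoskeletal linker moesin, had a Neg mean of 217 FPKM against 135 to 177. Plxnd1, a semaphorin receptor of vessels, had a Neg mean of 39.7 FPKM, with a wide spread between its libraries, against 7.53 to 13.4. Eci1, a mitochondrial enzyme of fat oxidation, had a Neg mean of 19.5 FPKM against 16.3 to 18.1, the narrowest margin of the 3.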

How the results depend on the processing

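With 1 library of the compared fractions left out in turn, the count of genes higher without overlap ran from 437 to 561 and lower from 325 to 423, since fewer libraries must be passed. Shared calls ran from 56 to 73 higher and from 6 to 22 lower, and crest mean calls from 895 to 943 higher and 703 to 925 lower. Within the shared genes, calls for Mc ran from 36 to 54 and for Sch from 50 to 80. A pseudocount of 0.1 gave 53 shared genes higher and 1311 genes with a lower crest mean. Without a minimum log2 difference, 2177 and 2303 genes had a higher and lower crest mean. Without DC among the fractions compared, 702 genes were higher and 593 lower without overlap and 64 carried the lower shared call; without Fb these were 699, 527 and 46. Rescaling to the same total gave 16 shared calls lower. The cause of these moves was not tested, other than fewer fractions to pass.

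With a replicate block, the shared calls were 114 higher and 58 lower, and all 82 and 28 genes called without the block were among them; no other count moved by more than 1.5 times. Of 63 named genes with a crest mean call, Hdac4 alone lost it, without Sch 1, Pc 2 or Fb 2, over 22 alternatives, and no direction reversed. The table holds no counts, so the precision of low values is unknown.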
